A study of Mus musculus with 9 samples.

Results

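Phase II conjugation enzymes, the transferases that attach a glucuronic acid, sulfate or glutathione group to drugs, hormones and metabolites, were followed in mouse liver after treatment with an agonist CD40 antibody. Members were every row of the deposited expression table whose gene name begins as a UDP-glucuronosyltransferase of families 1 to 3 (Ugt1, Ugt2, Ugt3), a numbered sulfotransferase (Sult) or a glutathione transferase of class alpha, kappa, mu, omega, pi, theta or zeta (Gsta, Gstk, Gstm, Gsto, Gstp, Gstt, Gstz). This rule took 60 of 24341 genes, 20 of them Ugt, 19 Sult and 21 Gst, and used the names alone. RNA came from whole livers of wild-type C57BL/6 mice 2 days after the antibody FGK45 (anti-CD40, mice 2, 5 and 9, n = 3) or after PBS (control, mice 3, 4, 7, 8, 11 and 12, n = 6). It was sequenced by QuantSeq, a method that reads the 3′ ends of mRNA, and deposited as FPKM, fragments scaled to transcript length and library size, with 0.01 as the lowest value in the table. Per the study's methods the mice were sex-matched young adults, with no age given for each mouse, and mice without the intended fall of B cells in blood after anti-CD40 were left out. Xist stood at 2.23 to 3.82 FPKM and Ddx3y, Eif2s3y, Kdm5d and Uty at 0.01 FPKM in all 9 mice. The comparison asks how far the conjugating capacity of the liver, as mRNA, differs 2 days after anti-CD40. In the study, chemotherapy given at that time was toxic, and the toxicity was not apparent when chemotherapy was given later. Neutralizing the cytokine IFN-γ or TNF there prevented the lethal weight loss and the liver lesions. The study's main text does not name phase II enzymes, and their part in the toxicity was not tested.

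The liver makes lipid-soluble compounds excretable in steps. Oxidation, mostly by cytochromes P450, opens or adds a reactive group, and phase II enzymes then join that group to a bulky or charged partner. Ugt enzymes sit in the endoplasmic reticulum and use UDP-glucuronic acid, Sult enzymes are cytosolic and use the sulfate donor PAPS, and most Gst enzymes are cytosolic and use glutathione to trap electrophiles. Hepatocytes hold most of these enzymes, and the nuclear receptors CAR and PXR, the aryl hydrocarbon receptor and the oxidative stress factor NRF2 are the textbook regulators of their genes.

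The library of treated mouse 5 stood apart: it held high levels of exocrine pancreas mRNAs, with Cela3b at 223 FPKM against 0.131 and 0.597 in mice 2 and 9, Cpb1 at 178 against 0.350 and 1.28, and Try4 at 156 against 0.152 and 0.521. In controls these 3 genes read at most 0.327 FPKM. Its part in the results was not tested, and the counts are also given without it.

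Most members that could be tested stood lower after anti-CD40, in all 3 families. Of the 49 members that passed the low-value filter (a mean of at least 0.1 FPKM over the 9 mice), 33 fell and 1, Gsta1, rose at an adjusted p under 0.05 in limma, while 15 were not called. Among all 13807 genes tested the shares called were 21.7% lower and 23.5% higher, so that 67.3% of tested members against 21.7% of tested genes were called lower. The median log2 fold change of the 49 members was -1.70, beside 0.0056 for all genes tested. Every anti-CD40 mouse lay below every control mouse for 30 of the 49, where the share of all genes tested was 19.6%. By family, 9 of 15 tested Ugt, 9 of 14 Sult and 15 of 20 Gst members fell, with median log2 fold changes of -1.53, -2.41 and -1.57. The tested Ugt hold 7 Ugt1a rows of 1 locus, 2 of them called lower, which 3′ reads tell apart poorly. With the 8 Ugt1a rows replaced by their sum, 8 Ugt entries fell. Without mouse 5, 31 members fell (9 Ugt, 9 Sult and 13 Gst) and 2 rose (1 Ugt and 1 Gst). The shares of all genes called were not taken for that fit, so its counts have no background beside them. Members that passed the filter could do so through the control mice alone, so these counts do not stand for all 60 members. The other 11 members were too low to test and are described at the end of the gene results. In bulk liver, fewer cells of a type and less mRNA per cell cannot be told apart.

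**Figure D1:**
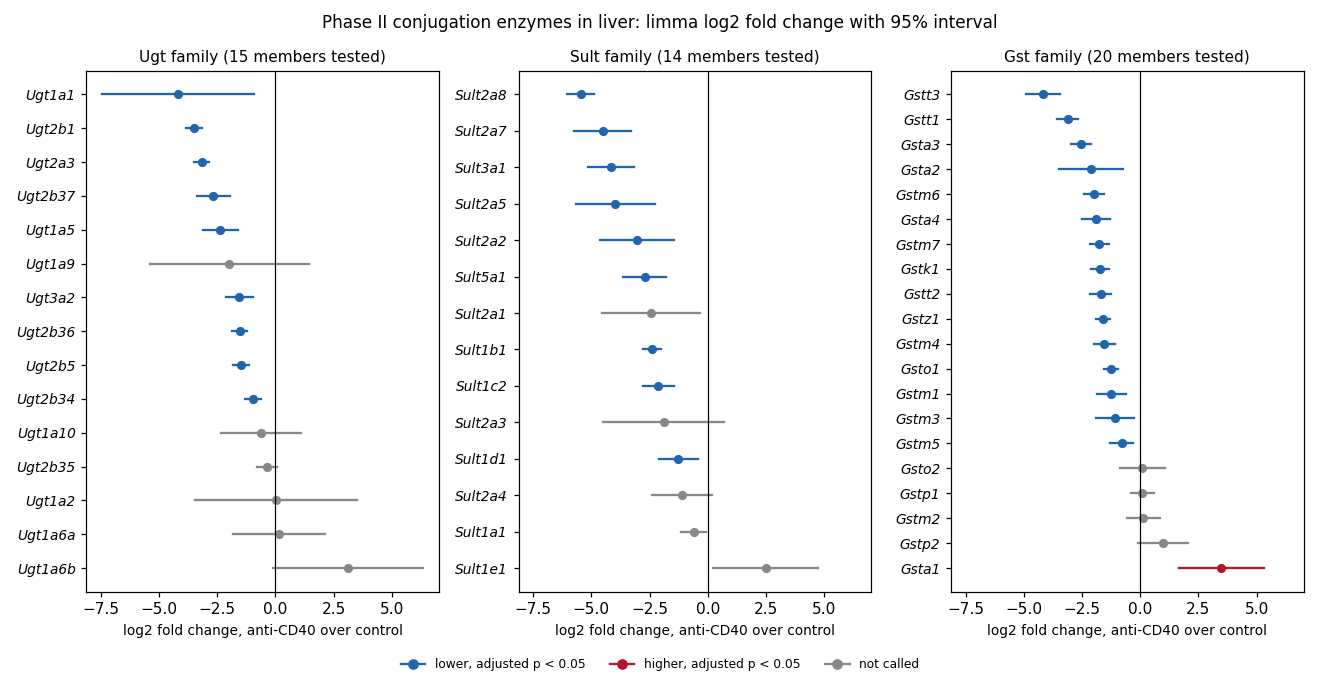
Log2 fold change of anti-CD40 (n = 3) over control (n = 6) for the 49 tested members, in 3 panels by family, with points for the limma estimate and bars for its 95% interval. Blue marks the 33 members called lower, red the 1 called higher (Gsta1) and grey the 15 not called, and Sult2a8 lies furthest to the left at -5.46.

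Over all 60 members the sums were 2476, 2297 and 2633 in anti-CD40 mice 2, 5 and 9, and from 6523 to 10690 in the 6 controls. The Ugt sum was 588 ± 42.2 FPKM after anti-CD40 against 2023 ± 228 FPKM in controls, the Sult sum 523 ± 99.8 against 1585 ± 715, and the Gst sum 1358 ± 43.8 against 4935 ± 974 (mean ± SD). No anti-CD40 mouse reached the lowest control mouse in any of the 3 sums. A few abundant genes make up each sum, and FPKM of 3′ reads is divided by a gene length that such reads do not sample evenly, so levels of different genes are only loosely comparable.

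The Ugt1a enzymes are encoded at a single locus, where alternative first exons are spliced onto shared last exons, and Ugt1a1 is the enzyme that conjugates bilirubin. The table lists 8 Ugt1a rows, all given the position chr1:88055411-88220002 (mm10). In all, 9 rows have this position, and the part of the row that is not Ugt1a was not tested. In the GENCODE M21 transcripts, 7 of the 8 genes share every 50-base window of their last 300 bases with another gene, so a read from there carries nothing that tells them apart. The exception, Ugt1a7c, shares none in its longest coding transcript, but the other Ugt1a genes share windows with it, so it is not set apart either. Its row was at the floor in every mouse.

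Summed over the 8 rows, Ugt1a stood at 246, 256 and 300.3 FPKM in anti-CD40 mice 2, 5 and 9 and at 833 to 1233 FPKM in the control mice (median 981). All 3 treated mice were thus below all 6 controls. The sum was 268 ± 28.8 against 1001 ± 169 FPKM, a log2 fold change of -1.89 (SE 0.15, 95% interval -2.24 to -1.55, adjusted p = 7.1e-06 in limma with the 8 rows replaced by their sum). The single rows were far less steady, because the division of the sum among them changed from mouse to mouse. Ugt1a2 held from 0.115% to 49.9% of the sum in control mice and Ugt1a5 from 39.1% to 88.6%.

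Ugt1a5, the row with the highest control mean of any Ugt, read 98.0, 155 and 112 FPKM after anti-CD40 and 329.9 to 1093 FPKM (median 607) in controls. It fell 5.13-fold (log2 -2.36, SE 0.35, adjusted p = 3.2e-04 in limma). Ugt1a1 read 17.7, 27.0 and 0.01 FPKM, against 27.4 to 147 FPKM (median 71.1). The groups did not overlap, though only by the narrow gap between 27.0 in mouse 5 and 27.4 in control mouse 4. Its log2 fold change of -4.18 (SE 1.47, adjusted p = 0.0395) leaned on mouse 9, listed at the floor: without that mouse it was -1.63 (adjusted p = 0.0622 in limma). The call also ended without control mouse 3, 7, 8, 11 or 12 (adjusted p = 0.0516 to 0.0710). Ugt1a2 read 129, 73.0 and 168 FPKM after anti-CD40 and 1.42 to 422 FPKM (median 321) in controls, with mouse 8 alone at 1.42. Its log2 fold change was 0.01 (SE 1.57, adjusted p = 0.995), and -1.23 (adjusted p = 0.0496 in limma) without control mouse 8. The remaining tested rows, Ugt1a6a, Ugt1a6b, Ugt1a9 and Ugt1a10, were not called, and each was at the floor in some mice.

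**Figure D2:**
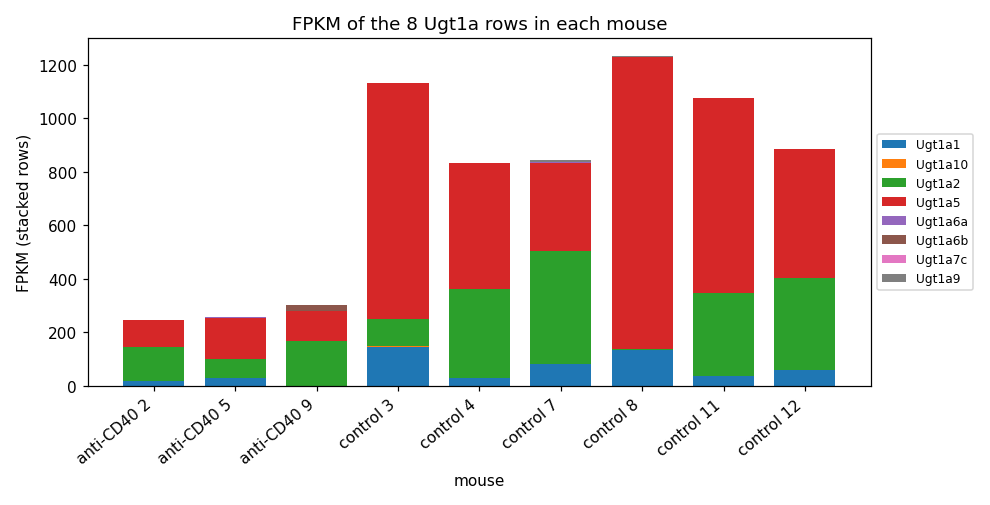
Stacked FPKM of the 8 Ugt1a rows in each of the 9 mice, with 1 bar per mouse and 1 color per row. The 3 anti-CD40 bars end at 246 to 300.3 FPKM and the 6 control bars at 833 to 1233, while the split between Ugt1a1, Ugt1a2 and Ugt1a5 inside the bars differs from mouse to mouse.

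Genes of the Ugt2 family, which glucuronidate steroids, bile acids and many drugs, lie in a cluster on chromosome 5 and share no 50-base window near the 3′ end with another gene, apart from Ugt2a1 and Ugt2a2. Of 7 tested, 6 fell, with a median log2 fold change of -1.53. The size of the fall differed widely between neighbors. Ugt2b1 (chr5:86916639-86926503) read 5.32, 6.15 and 4.20 FPKM after anti-CD40 and 49.8 to 71.3 FPKM (median 58.8) in controls, an 11.4-fold fall (log2 -3.51, SE 0.16, adjusted p = 2.2e-07 in limma). Ugt2a3 read 20.7, 22.5 and 24.2 FPKM, against 160.0 to 248 FPKM (median 203), and fell 8.95-fold (log2 -3.16, SE 0.14, adjusted p = 2.2e-07). For both genes the spread within a group was small beside the gap between the groups.

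Ugt2b36 and Ugt2b5 fell less than Ugt2b1 and Ugt2a3. For Ugt2b36 (chr5:87065927-87092555) the treated mice had 113, 122 and 122 FPKM and the controls 263 to 406 FPKM (median 361), and the log2 fold change was -1.53 (SE 0.14, adjusted p = 1.7e-05 in limma). For Ugt2b5 the values were 74.7, 81.0 and 78.0 FPKM against 175 to 260.2 FPKM (median 228), with a log2 fold change of -1.48 (SE 0.15, adjusted p = 2.5e-05). The 95% intervals of Ugt2b36 (-1.85 to -1.21) and Ugt2b5 (-1.81 to -1.15) lay apart from those of Ugt2b1 (-3.86 to -3.16) and Ugt2a3 (-3.48 to -2.85). Ugt2b37, a low member, read 0.243, 0.458 and 0.246 FPKM against 1.58 to 4.14 FPKM (median 2.37) and fell 6.31-fold on the log2(FPKM + 0.1) scale (adjusted p = 1.0e-04 in limma). Ugt2b34 had the smallest fall of the called Ugt2 members, log2 -0.95 (SE 0.16). Ugt2b35 was not called: its treated mice read 19.4, 19.3 and 19.9 FPKM and its controls 16.8 to 34.4 FPKM (median 25.04), a log2 fold change of -0.36 (95% interval -0.80 to 0.09). Ugt3a2, of a family that transfers sugars other than glucuronic acid, fell with log2 -1.55 (SE 0.26, adjusted p = 7.6e-04).

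**Figure D3:**
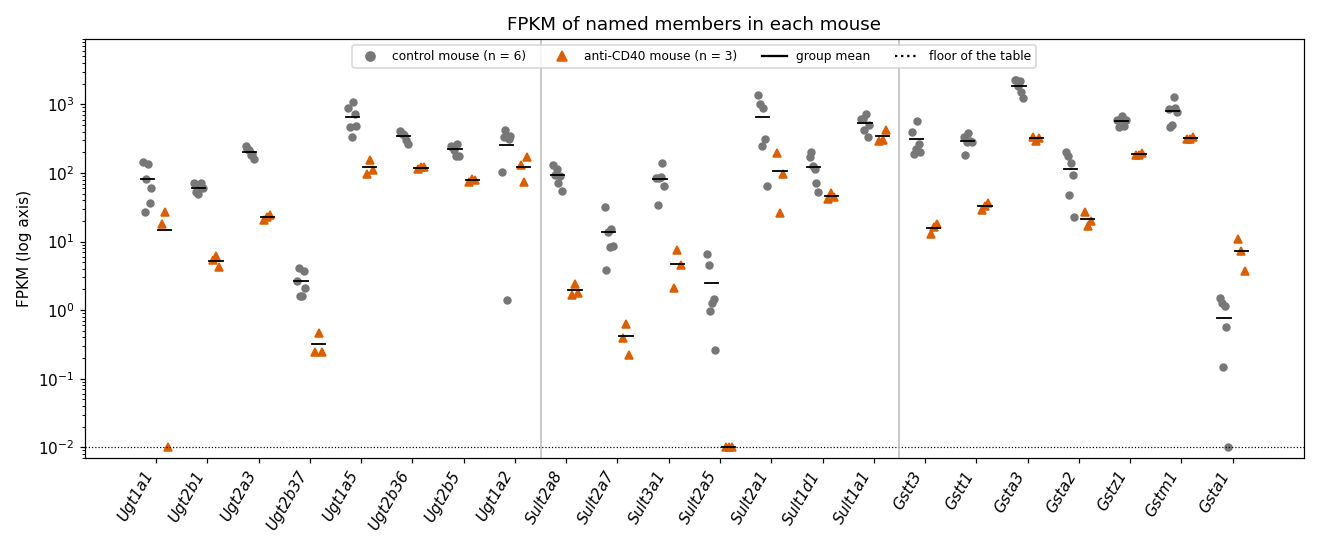
FPKM on a log axis of the 22 members chosen by rule, with circles for the 6 control mice and triangles for the 3 anti-CD40 mice. Bars mark group means and a dotted line marks the lowest value of the table (0.01). The triangles lie below the circles for most genes, overlap them for Ugt1a2, Sult2a1, Sult1a1 and Gsta2, and lie above them for Gsta1.

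The Sult2 enzymes sulfate hydroxysteroids and bile acids, and several Sult2a genes and Sult3a1, which sulfates amines, are known to be more active in female than in male mouse liver. Sult2a8 (chr7:14410686-14446587), a bile acid sulfotransferase, read 1.65, 2.41 and 1.80 FPKM after anti-CD40 and 54.9 to 132 FPKM (median 92.2) in controls. Every treated mouse lay more than an order of magnitude below every control. The fall was 44.0-fold (log2 -5.46, SE 0.26, adjusted p = 3.0e-07 in limma). Its neighbor Sult2a7 read 0.392, 0.625 and 0.224 FPKM against 3.79 to 31.8 FPKM (median 11.1), a log2 fold change of -4.51 (SE 0.55, adjusted p = 9.0e-05). Sult3a1 read 2.08, 7.55 and 4.57 FPKM against 34.4 to 142 FPKM (median 84.2) and fell 17.9-fold (log2 -4.16, SE 0.44, adjusted p = 3.9e-05 in limma). Sult5a1, whose substrates are little known, fell with log2 -2.70 (SE 0.42, adjusted p = 4.6e-04).

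Farther along the same cluster, Sult2a1 to Sult2a5 spread widely among the controls. Sult2a1 (chr7:13796246-13837410) had the highest control mean of any Sult, 647 ± 513 FPKM, and read 192, 25.9 and 97.1 FPKM after anti-CD40 against 63.7 to 1366 FPKM (median 598) in controls. Control mouse 12, at 63.7 FPKM, lay below treated mice 2 and 9, and the gene was not called (log2 -2.44, SE 0.94, adjusted p = 0.0575 in limma, exact permutation p = 0.0952). Without control mouse 12 it was called (log2 -2.98, adjusted p = 0.00828 in limma), and also with array weights (log2 -2.57, adjusted p = 0.0207). Without treated mouse 5 its log2 fold change was -1.64 (adjusted p = 0.239 in limma). Sult2a2 fell with log2 -3.04 (SE 0.71, adjusted p = 0.00566), although mouse 2 lay above control mouse 12. Sult2a5 was listed at the floor in all 3 treated mice and read 0.264 to 6.55 FPKM (median 1.35) in controls. Its adjusted p was 0.00175 in limma, and since the treated mice hold no signal the fitted log2 of -3.97 depends on the pseudocount (-1.52 with 1 and -6.30 with 0.01 FPKM added). Sult2a3 and Sult2a4 were not called. Near the 3′ end, Sult2a2 and Sult2a5 share 76.9% and 72.5% of their 50-base windows with other genes and Sult2a1 9.2%, so reads of these copies may have been divided among them.

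The Sult1 family was mixed. Sult1a1, which sulfates phenols, had the smallest fitted change of the 5 tested: its treated mice read 292, 303 and 429 FPKM and its controls 329.5 to 724 FPKM (median 549), with overlap, and it was not called (log2 -0.61, SE 0.24, adjusted p = 0.0602 in limma). It was called without treated mouse 9 (log2 -0.79, adjusted p = 0.0447 in limma) and without control mouse 11 (log2 -0.74, adjusted p = 0.0155). With quantile normalization its log2 fold change was -0.15 (adjusted p = 0.613 in limma), and with the Saa genes left out -0.24 (adjusted p = 0.407). Sult1b1, which sulfates thyroid hormone, fell steadily: its treated mice read 2.63, 3.68 and 4.06 FPKM and its controls 14.9 to 22.2 FPKM (median 18.2) (log2 -2.38, SE 0.17, adjusted p = 3.6e-06). Sult1d1, which acts on catecholamines, read 42.3, 50.4 and 45.1 FPKM against 52.8 to 201 FPKM (median 119), so that mouse 5 came close to the lowest control. Its log2 fold change was -1.27 (SE 0.38, adjusted p = 0.0186 in limma), and the call ended without treated mouse 2 (adjusted p = 0.0675) or 9 (adjusted p = 0.0561), with quantile normalization (log2 -0.98, adjusted p = 0.0617) and with the Saa genes left out (log2 -0.91, adjusted p = 0.0792). Sult1c2 fell with log2 -2.12 (SE 0.30).

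Sult1e1, the estrogen sulfotransferase, was the 1 tested Sult with a positive log2 fold change. The treated mice read 8.69, 12.4 and 14.9 FPKM, and the controls 0.421 to 16.4 FPKM (median 1.77), with control mouse 3 highest and control mice 8, 11 and 12 at 0.668, 0.602 and 0.421 FPKM. It was not called (log2 2.48, SE 1.01, adjusted p = 0.0685 in limma, exact permutation p = 0.0952). Values of this gene and of its neighbor Sult1d1, both on chromosome 5, were chosen for a closer look after they had been seen. Within a mouse, log2 of Sult1e1 over Sult1d1, with 0.1 FPKM added to each, was -2.27, -2.01 and -1.59 after anti-CD40 and from -7.19 to -3.40 in controls, without overlap.

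Glutathione transferases had the highest summed level, and all classes but pi held members that fell. In the theta class, which handles small halogenated compounds, all 3 tested members fell, with a median log2 fold change of -3.11. Gstt3 (chr10:75774122-75781414) read 13.0, 16.1 and 17.9 FPKM after anti-CD40 and 188 to 566 FPKM (median 245) in controls, an 18.1-fold fall (log2 -4.18, SE 0.33, adjusted p = 5.8e-06 in limma). Gstt1 read 29.2, 33.0 and 36.8 FPKM against 182 to 377 FPKM (median 287) and fell 8.62-fold (log2 -3.11, SE 0.20, adjusted p = 1.9e-06). Gstt2 fell less, with log2 -1.70 (SE 0.21), and its 95% interval (-2.17 to -1.24) lay apart from those of Gstt1 (-3.55 to -2.66) and Gstt3 (-4.91 to -3.45). In each of the 3 genes the groups were fully separated.

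The alpha class held both the most abundant Gst and the only member that rose. Gsta3, which conjugates the reactive epoxide of aflatoxin in mice, read 334, 294 and 326 FPKM after anti-CD40 and 1238 to 2228 FPKM (median 2007) in controls. It fell 5.76-fold (log2 -2.53, SE 0.20, adjusted p = 5.3e-06 in limma). Gsta4, which clears the lipid peroxidation product hydroxynonenal, fell with log2 -1.89 (SE 0.27, adjusted p = 2.6e-04). Gsta2 read 27.1, 16.6 and 19.8 FPKM against 23.1 to 199.9 FPKM (median 118), so that treated mouse 2 lay above control mouse 12. Its fall (log2 -2.11, SE 0.62, adjusted p = 0.0174 in limma, exact permutation p = 0.0476) lost its call without treated mouse 5 (adjusted p = 0.0650) or 9 (adjusted p = 0.0547).

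Gsta1 read 10.9, 7.33 and 3.78 FPKM after anti-CD40 and 0.01 to 1.52 FPKM (median 0.865) in controls, so all treated mice lay above all controls. The rise was 11.2-fold (log2 3.49, SE 0.82, 95% interval 1.67 to 5.30, adjusted p = 0.00560 in limma), and it was called under each of the 19 alternatives run. Its size depends on the pseudocount, with log2 2.21 (adjusted p = 5.2e-04 in limma) for 1 and 4.07 (adjusted p = 0.0213) for 0.01 FPKM added. Over the last 300 transcript bases, however, 82.1% of the 50-base windows of Gsta1 also occur in Gm3776, Gm10639 or Gsta2, and 40.6% of those of Gsta2 occur in its relatives. The row of Gm3776 itself read 2.37, 1.72 and 0.231 FPKM after anti-CD40 and at most 0.798 in controls, so how reads were divided between Gsta1 and Gm3776 bears on this value and was not tested. The last 60 coding bases of both enzymes (GENCODE M21, mm10) are printed to show how alike they are, with the stop codon in capitals, and their longest run in common is 17 bases.
Gsta1, chr9:78242519-78242578, plus strand: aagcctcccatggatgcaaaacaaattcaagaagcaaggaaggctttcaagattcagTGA
Gsta2, chr9:78331127-78331186, minus strand: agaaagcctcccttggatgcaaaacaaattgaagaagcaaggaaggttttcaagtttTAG

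Gsta1 and Gsta2 moved in opposite directions. Within a mouse, log2 of Gsta1 over Gsta2, with 0.1 FPKM added to each, was -1.31, -1.17 and -2.36 after anti-CD40 and from -7.72 to -6.80 in controls. Gsta1 was at 0.01 FPKM in control mouse 12 and at 0.147 in control mouse 7, where the added 0.1 FPKM bears on the ratio. This pair and the Gstm pair below were also picked after their values were seen, and no test is given for the ratios.

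In the mu class, a cluster on chromosome 3, 6 of 7 members fell and Gstm2 was not called. Gstm1 (chr3:108012250-108017973), the abundant mu enzyme, read 315, 312 and 329 FPKM after anti-CD40 and 474 to 1285 FPKM (median 809) in controls, a log2 fold change of -1.24 (SE 0.28, adjusted p = 0.00466 in limma). Gstm2 (chr3:107981702-107986436) read 173, 179 and 190.5 FPKM, within the control range of 96.2 to 324 FPKM (median 172), and its log2 fold change of 0.14 had a 95% interval of -0.56 to 0.83. The ratio of both was tight: log2 of Gstm2 over Gstm1 was -0.86, -0.80 and -0.79 in the treated mice and -2.42 to -1.99 in controls. Gstm6, Gstm7 and Gstm4 fell with log2 -1.98, -1.75 and -1.54, and Gstm3 and Gstm5 with log2 -1.09 and -0.80. Other rows have the same position as Gstm5, and their part in its value was not tested.

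**Figure D4:**
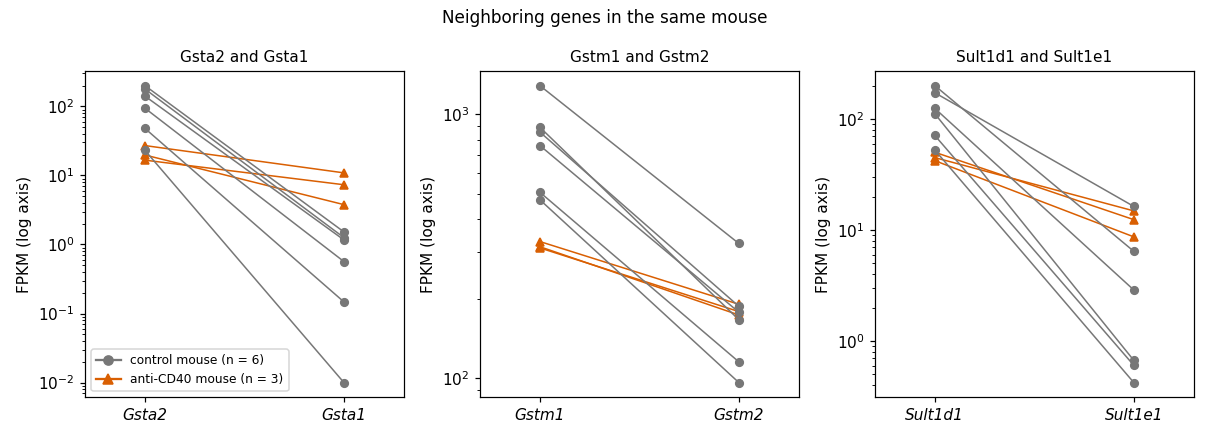
FPKM on log axes of 3 pairs of neighboring genes, with 1 line per mouse joining the 2 genes, grey for control (n = 6) and orange for anti-CD40 (n = 3). The orange lines are flatter in each panel. After anti-CD40, Gstm1 and Sult1d1 lay below all controls and Gsta1 above them. Gsta2, Gstm2 and Sult1e1 overlapped the controls, and of these only Gsta2 was called, as lower.

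Among the remaining classes, Gstz1, which as maleylacetoacetate isomerase serves the breakdown of tyrosine, read 181, 185 and 193 FPKM after anti-CD40 and 469 to 675 FPKM (median 595) in controls. It fell 3.04-fold (log2 -1.60, SE 0.13, adjusted p = 7.3e-06 in limma). Another row has the same position as Gstz1, and its part in this value was not tested. Gstk1, found in mitochondria and peroxisomes, fell with log2 -1.73 (SE 0.17, adjusted p = 2.3e-05). Gsto1, which reduces dehydroascorbate and arsenic compounds, fell with log2 -1.25 (SE 0.14, adjusted p = 5.2e-05). Gstp1 was not called: the treated mice read 28.8, 26.5 and 29.7 FPKM and the controls 18.7 to 39.2 FPKM (median 27.4), a log2 fold change of 0.10 (95% interval -0.40 to 0.59). Gstp1 and Gstp2 share every 50-base window near the 3′ end with another gene, so their rows cannot be told apart by such reads. Gsto2 was not called, at 0.167 ± 0.0709 against 0.174 ± 0.144 FPKM.

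Each of the 22 members chosen by the rule given under processing was also put to an exact 2-sided permutation test. The 3 treated labels were moved through their 84 possible placements in this test. The smallest p it can give is 0.0238, which every one of these members reached whose groups did not overlap. A further 11 members had means under the filter. Sult1c1, Ugt1a7c, Ugt2a1 and Ugt2a2 were listed at 0.01 FPKM in all 9 mice. Sult2a6, Sult2b1, Sult4a1, Sult6b1, Gstt4, Ugt2b38 and Ugt3a1 reached at most 0.345 FPKM in any mouse, where a few reads decide a value. Ugt2b38, for example, was at the floor in all 3 treated mice and read 0.01 to 0.345 FPKM (median 0.0812) in controls. The smallest whole reads that match these values were 1, 9, 0, 0, 11 and 4 in control mice 3, 4, 7, 8, 11 and 12. They are inferred from the FPKM and were not counted.

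Some control mice stood at the edge of the group for many members. Mouse 12 was the lowest control for 19 of the 49 tested members and mouse 4 for 16, and mouse 8 was the highest for 16 and mouse 3 for 15. Gsta2, Sult2a1 and Sult2a2, all lowest in mouse 12, had SDs of 62.3%, 79.4% and 77.1% of their control means. By contrast the 5 tested members with the smallest relative spread were Ugt2b1, Ugt2a3, Ugt2b36, Gstz1 and Gsto1, at 14.8%, 15.5%, 15.6%, 13.7% and 13.1%. Relative depth, read from the step between low values, ran from 0.870 to 1.13 over the 9 mice, with control mouse 8 lowest and treated mouse 2 highest.

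Promoters of the members were compared at the level of letters. RefSeq (GRCm38.p6) gave 63 promoters for 52 members, each from 250 bases before to 50 after the start, among 32851 promoters in all, and both strands were searched. The core of the antioxidant response element that NRF2 binds, TGACNNNGC, occurred in 3 of 63 (4.8%) against 12.4% of all promoters. The core GCGTG of the aryl hydrocarbon receptor occurred in 11 (17.5%) against 32.4%, and the STAT letters TTCNNNGAA in 4 (6.3%) against 8.3%. A match is a description of letters and not evidence of binding.

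Cofactors for conjugation come from separate enzymes. Of 15 genes for cofactor supply, 14 were tested, and 3 fell and 1 rose, where 21.7% of all genes tested fell and 23.5% rose, so neither count stands above that background. The list had a median log2 fold change of -0.14. Papss2, which makes the sulfate donor PAPS, read 13.8, 17.1 and 18.9 FPKM after anti-CD40 and 47.7 to 97.2 FPKM (median 69.4) in controls (log2 -2.04, SE 0.20, adjusted p = 2.1e-05 in limma). Ugp2, which makes UDP-glucose, read 36.6, 39.3 and 44.5 FPKM against 79.5 to 109 FPKM (median 100.1) (log2 -1.25, SE 0.13, adjusted p = 4.0e-05). Bpnt1 fell with log2 -0.58 and Impad1, likewise a phosphatase acting on the spent sulfate donor, rose with log2 0.43. The glutathione synthesis genes Gclc, Gclm and Gss and the reductase Gsr were not called.

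Of 19 tested enzymes that conjugate by other routes or hydrolyse conjugates and epoxides, 12 fell and 2 rose, with a median log2 fold change of -0.80. The same background shares apply here and to the regulators and their target genes. The methyltransferases Inmt and Gnmt fell with log2 -5.39 and -2.10, and the microsomal transferase Mgst3 with log2 -2.47 (adjusted p = 1.3e-08, 1.1e-04 and 2.8e-06 in limma). Mgst2 rose from 0.01 to 1.89 FPKM (median 0.445) in controls to 2.60, 2.39 and 1.62 FPKM (log2 2.21, adjusted p = 0.0369), and Gusb, the lysosomal enzyme that removes glucuronic acid, rose with log2 1.0 (adjusted p = 2.6e-04).

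Among 14 regulators, 4 fell and 1 rose. Nr1i3, which encodes CAR, read 3.77, 10.9 and 3.77 FPKM against 16.8 to 39.4 FPKM (median 30.1) and fell with log2 -2.38 (adjusted p = 3.4e-04 in limma). The table gives it the same position as Apoa2, an apolipoprotein gene at 16832 to 29829 FPKM in controls and 4839 to 5993 FPKM after anti-CD40, and the part of that overlap in the value of Nr1i3 was not tested. Cebpa, a hepatocyte transcription factor, fell with log2 -1.49 and Rxra, the partner of CAR and PXR, with log2 -0.74. Nfe2l2, which encodes NRF2, rose with log2 0.80 (adjusted p = 0.0258), and Nr1i2, which encodes PXR, was not called (log2 -0.61, adjusted p = 0.0579). Of 12 further target genes of these regulators, NRF2 among them, 4 fell, led by Cyp1a2, Cyp3a11 and Cyp2b10 (log2 -3.98, -2.25 and -2.22). Another 4 rose, led by Cyp1b1, Hmox1 and Srxn1 (log2 2.47, 1.35 and 0.92). Cyp1b1 was low, at 1.06, 0.779 and 0.585 FPKM after anti-CD40 and 0.0107 to 0.157 FPKM in controls. The added 0.1 FPKM therefore bears on its log2 fold change. The list pools targets of different regulators, so its counts do not describe any 1 of them. These lists were fixed by hand and are described by their counts only.

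**Figure D5:**
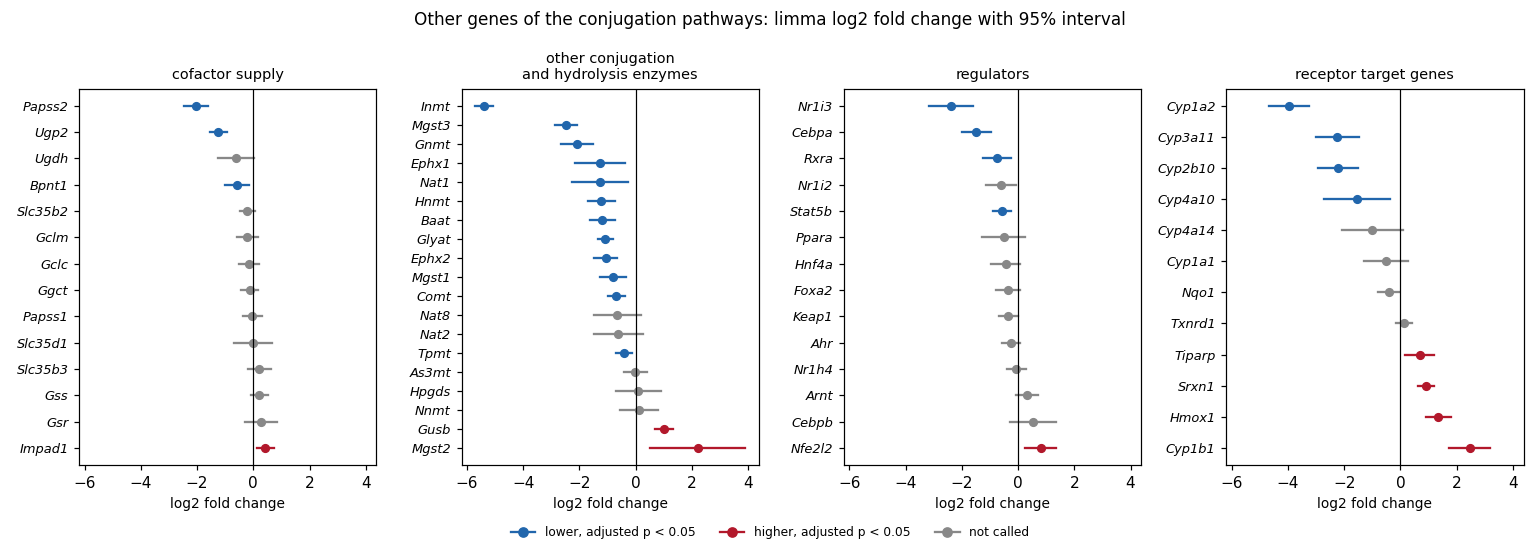
Log2 fold change of anti-CD40 over control with its 95% interval from limma for the tested genes of 4 further lists. The panels show cofactor supply, other conjugation and hydrolysis enzymes, regulators, and receptor target genes together with targets of NRF2. Blue marks genes called lower, red genes called higher and grey genes not called, and the cofactor panel has a median of -0.14 and 10 of 14 genes not called.

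Markers of several cell types also differed between the groups, in both directions. Of all genes tested, 21.7% fell and 23.5% rose. Of 12 hepatocyte markers 9 fell and 2, Apob and Trf, rose, with a median log2 fold change of -1.14 and summed levels of 31600 to 38100 FPKM after anti-CD40 against 52400 to 105000 in controls. All 5 tested neutrophil markers rose (sums of 4200 to 5180 against 18.1 to 152 FPKM), as did 6 of 8 monocyte and macrophage markers, with 1 lower, 4 of 4 B cell and 6 of 7 T and NK cell markers. All 6 Kupffer cell markers fell. Of the other lists, 2 rose and 2 fell of 6 sinusoidal endothelial markers, 3 rose and 2 fell of 6 stellate cell markers, and 2 of 5 cholangiocyte and 1 of 9 exocrine pancreas markers rose, the last with mouse 5 far above all other mice. The counts of these other lists are too small to set apart from the shares of all genes tested. The part of the marker shifts in the members' lower values was not tested. With the Saa genes, acute phase genes that can take a large share of liver mRNA, left out and the rest rescaled, the median of all genes was 0.35 and that of the members lay 1.69 below it, beside 1.71 as deposited. On that scale 29 members fell and 2 rose, and Ugt2b35 changed its sign. With quantile normalization 31 fell and 1 rose, Gsto2 and Ugt1a6a changed sign, and the members' median lay 1.32 below that of all genes. The shares of all genes called were not taken on these scales.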

How the data were processed

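RNA from 9 livers (3 anti-CD40, 6 control) was sequenced by QuantSeq 3′ mRNA-seq. Per the labels and the study's methods, the authors aligned reads to mm10 with STAR and deposited FPKM values from Cufflinks and Cuffdiff. The annotation they used is not given in the sources used here. The smallest FPKM listed was 0.01, and 15 genes marked as failed, none of them a member, were left out. Read totals were not used here, and relative depths were read from the steps between low values (60.6% of 2538 low genes gave whole reads in every mouse within 0.12 reads). All intervals and tests cover the spread between mice only.

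FPKM was analysed as log2(FPKM + 0.1) with limma 3.58.1 in R 4.3.3, for genes with a mean of at least 0.1 FPKM, with a trended prior and Benjamini-Hochberg adjustment over all 13807 genes. The fold change is therefore on that scale, and understates changes of low genes. A count test was not run, since FPKM are not counts. Summaries and exact permutation tests used Python 3.11.15 with numpy 2.4.6, pandas 2.3.3 and scipy 1.17.1, and plots matplotlib 3.10.9. Scripts were tested on simulated data with known changes. The 22 members chosen by rule were, in each family, the 4 with the highest control mean and the called members with the largest changes. Of the latter, up to 4 with the largest fall and up to 4 with the largest rise were taken. They needed a mean of at least 1 FPKM in the higher group. Values of single mice are also given for Ugt2b35, Sult1b1, Sult1e1, Gstm2 and Gstp1, which were taken outside this rule. The members and lists were chosen with earlier results of these data known. Windows of 50 bases in the last 300 bases of the longest coding GENCODE M21 transcript of each of the 60 members were compared with all other genes, of which 39 shared none. Alternatives covered the pseudocount, the filter, scaling, the prior, array weights, leaving out each mouse and summing the Ugt1a rows. The replicate numbers of the labels are single mice, and no batch or date was given in them. A regulator gene, a promoter motif and some sequences are not reported here.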

Additional observations from a re-analysis of the deposited data

Results flagged for a closer look

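In 23 results the control mice were examined for a mouse apart from the rest of its group, and 1 result was marked. Dixon's test was used at its 95% critical value of 0.625 for 6 mice, which chance passes in about 1 in 20 groups. The 3 treated mice were not examined in this way. In the control group, Ugt1a2 of mouse 8, at 1.42 FPKM, was separated from the next control by 0.752 of the range on the log2 scale, where the other controls read 104 to 422 FPKM. The sum of the 8 Ugt1a rows in that mouse, 1233 FPKM, was the highest of the controls, and its Ugt1a5 row, at 1093 FPKM, was likewise the highest.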

How the results depend on the processing

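No paired analysis was possible because the 2 groups share no replicate number. Over all settings the members called lower numbered 28 to 35 (33 as reported), the lowest at an adjusted p under 0.01. The shares of all genes called belong to the reported fit and were not taken for the alternatives. Members called higher numbered 2 with the Saa genes left out, 2 with array weights and 1 to 3 when single mice were left out. For the Sult family this count, 0 as reported, was 1 with the Saa genes left out, 1 with array weights and 0 to 1 without single mice, and for the Ugt family 0 to 1 without single mice. Calls among the other conjugation and hydrolysis enzymes numbered 9 with the Saa genes left out (14 as reported), and calls among the cofactor genes 2 to 5 without single mice (4 as reported). Calls among the regulators (5 as reported) numbered 3 with no filter and 3 to 7 without single mice. Ugt1a2 reversed to -0.0898 with a pseudocount of 1. Without single mice it ran from -1.234 (without control mouse 8) to 0.389, and was also below 0 without anti-CD40 mouse 2 or 9 or control mouse 3. Of 418 values of 22 members under 19 alternatives, 391 kept direction and side of the threshold, 18 lost the call, 4 gained it and 5 reversed. Ugt1a1, Sult1d1 and Gsta2 also lost their calls with no filter (adjusted p = 0.130, 0.0690 and 0.0693 in limma), and Ugt1a1 with a robust prior, a pseudocount of 0.01 and the Saa genes left out (adjusted p = 0.0804, 0.0530 and 0.0510). The cause was not tested for these. With 3 treated mice the exact test cannot give a p below 0.0238, and depth limits the members listed near 0.01 FPKM.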
